A study of Mus musculus with 10 samples.

Results

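Heterotrimeric G protein and RGS genes were measured on Affymetrix arrays in whole urogenital systems of mouse embryos, taken at embryonic day 15.5. The genes were taken by symbol: every RGS gene with a number in its name, including the RGS-binding protein genes Rgs7bp and Rgs9bp, and the named Gα, Gβ and Gγ subunit genes. Probe sets with 1 such symbol numbered 119 of 34945 named probe sets, and they measured 50 of 18193 genes. These were 15 Gα, 5 Gβ and 9 Gγ genes, 19 RGS genes and the pair of RGS-binding protein genes. The 10 arrays formed 2 groups of 5 RNA pools, each pool from 1 to 2 urogenital systems. Embryos called homozygous carried the cneo allele of Wnt9b, a Wnt ligand of the ureteric bud and Wolffian duct, on both chromosomes. Embryos called control have 1 cneo and 1 normal allele by their genotype label, while their titles call them wild type. The design text of the series describes another experiment, on kidney mesenchyme of an earlier stage, so the groups follow the sample labels. Neither the strain nor the effect of cneo on the Wnt9b transcript is stated in the labels. Replicates are 5 distinct RNA pools per genotype, and the p-values rest on the spread among them.

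Heterotrimeric G proteins relay signals from seven-pass membrane receptors. An activated receptor makes the Gα subunit release GDP and bind GTP, after which Gα and the Gβγ pair act on enzymes and ion channels. RGS proteins speed up GTP hydrolysis by Gα and so end the signal. Gα subunits fall into classes that raise cyclic AMP (Gs), lower it (Gi and Go) or activate phospholipase C (Gq), and G12 and G13 form a further class. Many members are markers of cell types present in and around the embryonic kidney: Gnao1, Gng3 and Rgs4 of neurons, Rgs5 of pericytes and Gng11 of endothelium.

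Of the 50 genes 3 rose in homozygous pools and 0 fell (limma, Benjamini-Hochberg adjusted p under 0.05 over all genes). The risers were Rgs4, Gng4 and Rgs7. Over all genes 0.539% passed as higher and 0.429% as lower. In 9 of the 50 genes every homozygous pool lay above every control pool, and in 0 genes below; over all genes these shares were 2.61% and 2.1%, or 4.71% in either direction. The 9 were Rgs4, Gng4, Gng3, Rgs7, Rgs2, Rgs5, Rgs10, Gnb4 and Gnb5. The log2 difference, homozygous minus control, was positive in 37 of the 50 genes with a median of 0.23, against 50% of all genes and a median of 0. With quantile normalization 35 of the 50 were positive, against 47.5% of all genes, and with a common median 36, against 43.7%. Without the 3 pools of high Xist, a transcript of female cells, 32 were positive, against 53% of all genes. At an unadjusted p under 0.05 stood 18 of the 50 genes, against 15.7% of all genes.

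Promoters of the genes that rose are printed here to show the sequence at their start sites; they are RefSeq windows of the GRCm38.p6 build, 300 bases long, from 250 bases before a start site to 50 after it, written 5′ to 3′ on the gene's strand. Of the 50 genes 37 had a window in the RefSeq table. Capitals mark matches to CANNTG, the E-box core, or GGGCGG, a GC box, on either strand. The first Gng4 window overlaps the second.
Rgs4, chr1:169747593-169747892, minus strand: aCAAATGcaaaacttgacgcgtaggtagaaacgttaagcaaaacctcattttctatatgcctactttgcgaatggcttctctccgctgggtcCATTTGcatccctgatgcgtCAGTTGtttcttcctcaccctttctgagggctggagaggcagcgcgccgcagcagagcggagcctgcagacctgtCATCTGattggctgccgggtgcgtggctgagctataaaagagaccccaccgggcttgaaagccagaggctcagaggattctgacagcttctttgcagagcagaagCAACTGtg
Rgs7, chr1:175492496-175492795, minus strand: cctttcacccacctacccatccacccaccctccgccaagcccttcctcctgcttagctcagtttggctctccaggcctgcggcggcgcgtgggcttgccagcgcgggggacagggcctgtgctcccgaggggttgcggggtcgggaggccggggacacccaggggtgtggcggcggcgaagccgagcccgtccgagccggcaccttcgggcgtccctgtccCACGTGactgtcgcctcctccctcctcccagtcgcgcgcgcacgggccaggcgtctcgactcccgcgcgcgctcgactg
Gng4 first start, chr13:13783809-13784108, plus strand: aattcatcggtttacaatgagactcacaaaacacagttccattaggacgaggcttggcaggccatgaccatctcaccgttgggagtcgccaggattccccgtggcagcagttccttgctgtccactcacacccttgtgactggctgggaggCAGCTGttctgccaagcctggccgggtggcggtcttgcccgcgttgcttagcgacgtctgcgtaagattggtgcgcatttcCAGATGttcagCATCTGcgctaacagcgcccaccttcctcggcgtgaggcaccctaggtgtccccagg
Gng4 second start, chr13:13784057-13784356, plus strand: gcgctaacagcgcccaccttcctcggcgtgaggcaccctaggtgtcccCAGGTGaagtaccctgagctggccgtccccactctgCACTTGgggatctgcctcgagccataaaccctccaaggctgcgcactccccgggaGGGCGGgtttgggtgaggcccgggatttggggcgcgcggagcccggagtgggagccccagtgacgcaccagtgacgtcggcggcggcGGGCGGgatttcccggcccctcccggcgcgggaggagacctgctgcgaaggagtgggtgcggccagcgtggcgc
The Rgs4 window held 5 matches to CANNTG and that of Rgs7 held 1, while the Gng4 windows held 3 and 2. At least 1 match was found in 72.3% of the 32851 promoter windows listed by RefSeq, with a median of 1 match per window. GGGCGG occurred 2 times in the second Gng4 window and 0 times in the others, against 35.7% of all windows with a match. The homeodomain core TAATTA had no match in any of the 4 windows and was found in 5.29% of all. Its shorter form ATTA, not capitalised, occurred 1 time, in the first Gng4 window, against 58.0% of all windows. GC content was 53.0% in the Rgs4 window, 73.3% in that of Rgs7 and 58.3% and 71.3% in those of Gng4. The median of all windows was 52.7%.

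Rgs4, an R4-class RGS protein that acts on Gi and Gq and is known in developing autonomic neurons, had the largest difference of the 50 genes. Its intensity was 1733.4, 774.0, 1536.0, 699.9 and 1913.4 in homozygous pools 1 to 5. In control pools 1 to 5 it was 13.5, 226.5, 54.6, 174.1 and 118.5. The groups did not overlap, and control pool 1 lay under the floor of 16 to which lower intensities were set. That array also had a high ratio of actin 3′ to middle signal (94.8). The log2 difference was 3.92 with a floor of 8 and 3.67 with a floor of 32. On the log2 scale the mean was 10.26 ± 0.68 (SD, n = 5) in homozygous and 6.39 ± 1.54 (SD, n = 5) in control pools. Rgs4 thus rose by 3.87 ± 0.71 (SE; limma adjusted p = 0.0473). A second Rgs4 probe set also separated the groups, with a difference of 1.24, and the remaining one, at the floor on 4 arrays, differed by 0.11.

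Gng4, a Gγ subunit gene of neuronal cells, had intensities of 719.1, 430.0, 1013.1, 451.9 and 542.8 in homozygous pools 1 to 5. Control pools 1 to 5 gave 61.2, 169.5, 62.3, 47.2 and 88.0. The highest control pool, pool 2, was below the lowest homozygous pool, also pool 2. The log2 mean was 9.23 ± 0.51 (SD, n = 5) against 6.26 ± 0.71 (SD, n = 5), and Gng4 rose by 2.96 ± 0.38 (SE; limma adjusted p = 0.0222). Its other probe sets were at the floor on 6 and 7 of the 10 arrays, including every control array, and differed by 1.50 and 0.27.

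Rgs7 encodes an R7-class RGS protein that works as a dimer with the Gβ subunit Gnb5 and acts on Gi and Go. It had intensities of 424.8, 259.4, 540.2, 333.0 and 480.9 in homozygous pools 1 to 5 and of 41.4, 212.1, 70.2, 83.8 and 72.3 in control pools 1 to 5. Control pool 2 again stood highest of its group and homozygous pool 2 lowest of its own. Its log2 mean was 8.62 ± 0.43 (SD, n = 5) in homozygous and 6.36 ± 0.86 (SD, n = 5) in control pools, and Rgs7 rose by 2.26 ± 0.41 (SE; limma adjusted p = 0.0473). It had 1 probe set.

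The calls depended on single pools. None of the 3 genes passed without homozygous pool 1, 3 or 5 or without control pool 1, 3, 4 or 5, where limma adjusted p ran from 0.0509 to 0.0818 for Gng4, from 0.0637 to 0.141 for Rgs4 and from 0.076 to 0.137 for Rgs7. Gng4 alone of the 50 passed without homozygous pool 4. Without homozygous pool 2 the genes that passed were Gnb4, Gng4, Rgs2, Rgs5 and Rgs7, and without control pool 2 they were Gng3, Gng4, Rgs17, Rgs4 and Rgs7. The count over all genes moved too, from 176 to between 3 and 414. The log2 difference ran from 3.28 to 4.23 for Rgs4, from 2.77 to 3.25 for Gng4 and from 2.02 to 2.61 for Rgs7 as each pool was left out. With the mean of all its probe sets, Rgs4 differed by 1.74 (adjusted p = 0.05005) and Gng4 rose by 1.58 (adjusted p = 0.0292), both in limma.

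Gng3, the remaining Gγ gene whose groups did not overlap, encodes a neuronal subunit. Its intensity was 1753.2, 718.5, 2192.0, 1000.2 and 922.2 in homozygous pools 1 to 5 and 79.4, 520.4, 89.1, 418.0 and 153.2 in control pools 1 to 5. Control pools 2 and 4 came nearest to the homozygous range. Its log2 mean was 10.24 ± 0.67 (SD, n = 5) in homozygous and 7.56 ± 1.25 (SD, n = 5) in control pools. The difference of 2.68 ± 0.60 did not pass (SE; limma adjusted p = 0.0753).

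**Figure D1:**
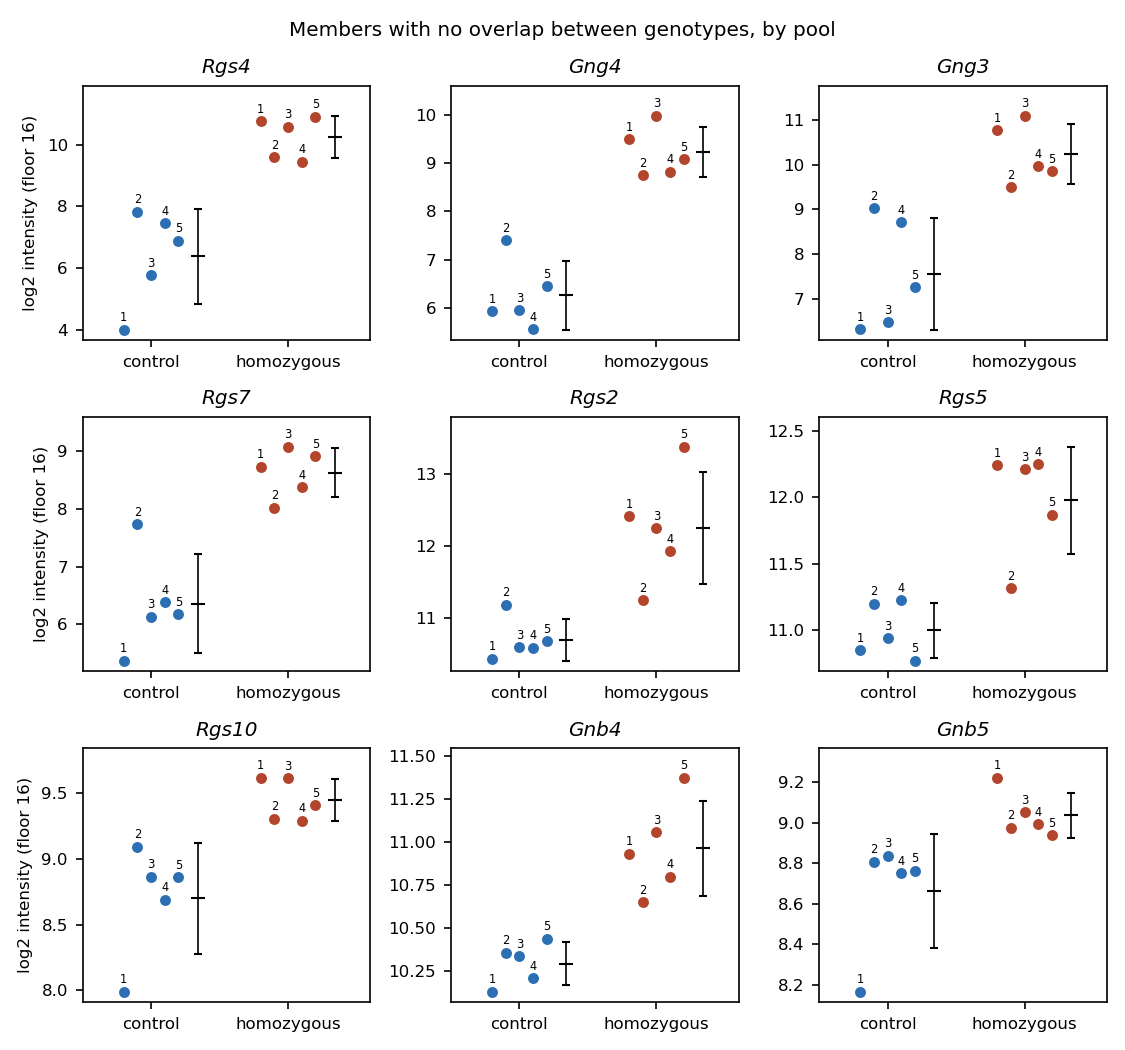
Log2 intensity (values under 16 set to 16) of the 9 genes whose genotypes did not overlap, by pool; points are pools with their numbers, and the bar beside each group is its mean ± SD (n = 5). Every homozygous point lies above every control point in each panel, and control pool 1, an array of high actin ratio, is the lowest control point in 7 of the 9 panels, all but Gng4 and Rgs5. Vertical axes differ between panels.

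Several marker lists were higher in homozygous pools. Markers of skeletal muscle were higher in 8 of 8 genes (median log2 difference 1.98), of adrenal cortex in 8 of 8 (1.41) and of Schwann and satellite glia in 4 of 5 (0.95), none past the threshold and none at the floor on every array. Their means ran from 7.61 to 10.70, 8.26 to 11.002 and 8.29 to 9.20 in homozygous pools and from 4.85 to 11.09, 5.51 to 10.36 and 6.64 to 8.75 in control pools, and their part in the results was not tested. Markers of sympathetic neurons and chromaffin cells, which make catecholamines, were examined further. The mean of 13 measured genes of a list of 15 lay between 9.73 and 10.97 on the log2 scale in homozygous pools and between 5.73 and 9.36 in control pools. Of these 13 genes 12 were higher in homozygous pools, none passed the threshold and none was at the floor on every array; Gata3, which also marks ureteric epithelium, differed by -0.60. Among control pools the list mean was lowest in pool 1 (5.73) and highest in pool 2 (9.36), and 8 of the 20 named genes had their lowest and highest control intensities in these same pools: Rgs4, Rgs7, Gng3, Gnao1, Gnal, Rgs17, Rgs2 and Rgs10. Gng4 did not, with its lowest control intensity in pool 4. The 20 genes were named partly for a small p or separated groups. Of all 50 genes 10 had their lowest and highest control intensities in pools 1 and 2, and 22 were lowest in pool 1. The share over all genes was not counted. Control pool 1 was also an array of high actin ratio (94.8), and the part of RNA quality in this match was not tested. With the list mean as a covariate, none of the 18193 genes passed. The difference was then 1.88 for Gng4, 1.29 for Rgs4, 0.87 for Rgs7 and 0.46 for Gng3. Among the other separated genes it was 1.19 for Rgs2, 0.67 for Rgs5, 0.56 for Gnb4, 0.10 for Rgs10 and 0.0026 for Gnb5, and it was 0.39 for Rgs17. In that fit the lowest adjusted p among the named members was 0.478 in limma. The list mean itself does not overlap between the genotypes, so the covariate and the genotype cannot be fully told apart. In whole tissue, more cells of a type and more RNA per cell cannot be told apart either.

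Rgs2, an R4-class gene that acts on Gq and is abundant in vascular smooth muscle, had intensities of 5471.7, 2438.5, 4886.9, 3902.5 and 10686.1 in homozygous pools 1 to 5. In control pools 1 to 5 it was 1388.1, 2332.8, 1548.2, 1541.8 and 1638.8. The gap between the groups was narrow, between both pools numbered 2, and homozygous pool 5 stood highest. Its log2 mean of 12.25 ± 0.78 (SD, n = 5) in homozygous pools compared with 10.70 ± 0.29 (SD, n = 5) in controls, a difference of 1.55 ± 0.35 (SE; limma adjusted p = 0.0753). All 4 Rgs2 probe sets separated the groups, with differences of 1.55, 1.76, 1.00 and 1.41, and their mean passed (1.43, limma adjusted p = 0.0413). The smooth muscle list mean ran from 8.43 to 11.41 in homozygous and from 7.77 to 10.19 in control pools; all 8 of its genes were higher in homozygous pools, and none passed or was at the floor on every array. The part of smooth muscle markers in the Rgs2 difference was not tested.

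Rgs5, an R4-class gene and a marker of pericytes, had intensities of 4852.9, 2546.0, 4749.6, 4872.1 and 3741.6 in homozygous pools 1 to 5 and of 1846.8, 2350.6, 1961.7, 2396.9 and 1745.2 in control pools 1 to 5. Homozygous pool 2 was the pool nearest to the control range. On the log2 scale the SD was 0.40 in homozygous and 0.21 in control pools (n = 5 each), and the difference was 0.98 ± 0.19 (SE; limma adjusted p = 0.0558). Its other probe sets differed by 0.97 and 1.11 with no overlap, apart from 1 at the floor on all 10 arrays, and the mean of all 4 passed (0.76, limma adjusted p = 0.0413). The pericyte list without Rgs5 had means of 9.25 to 9.92 in homozygous and 9.17 to 9.40 in control pools. Of its 6 genes 4 were higher in homozygous pools and none passed. Higd1b differed by 0.92, Abcc9 by 0.44, Kcnj8 by 0.31, Notch3 by 0.21 with no overlap, Pdgfrb by -0.04 and Cspg4 by -0.18. No gene of the list was at the floor on every array. Its part in the Rgs5 difference was not tested.

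The other R4-class genes, Rgs1, Rgs3, Rgs8, Rgs13, Rgs16 and Rgs18, differed by between -0.52 and 0.81, and none passed (lowest limma adjusted p = 0.224). Of these 6 genes 3 were at the floor on at least 1 array. In the R7 class, Rgs6, Rgs9 and Rgs11 differed by 0.067 to 0.94, with a lowest adjusted p of 0.199 in limma. Rgs7bp encodes the protein that anchors R7-class RGS proteins to the membrane. Its intensity ran from 333.2 to 746.1 in homozygous and from 243.4 to 391.9 in control pools, overlapping in homozygous pool 2, and it differed by 0.84 ± 0.24 on the log2 scale (SE; limma adjusted p = 0.125). Rgs9bp, the anchor of Rgs9 in photoreceptors, differed by 0.23.

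Rgs10 of the R12 class, which acts on Gi and is known in microglia and other immune cells, had intensities of 786.2, 632.6, 782.9, 626.2 and 679.9 in homozygous pools 1 to 5. Control pools 1 to 5 gave 254.3, 546.6, 466.4, 412.8 and 465.2. The groups did not overlap, and control pool 1 was far below the other controls. The log2 difference was 0.75 ± 0.19 (SE; limma adjusted p = 0.102). It was 0.57 without control pool 1. Macrophage and blood markers had list means of 8.11 to 8.50 in homozygous and 7.84 to 8.09 in control pools. Of the 6 genes 4 were higher in homozygous pools, of which Csf1r and Adgre1 passed, against 0.539% of all genes. C1qa was at the floor on every array. The list mean was lowest in control pool 2 (7.837), the control pool where Rgs10 was highest. With the neuronal and chromaffin mean as a covariate Rgs10 differed by 0.10. The part of either marker list in the Rgs10 difference was not tested. Rgs12 and Rgs14 of the same class differed by -0.23 and -0.29.

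In the RZ class, Rgs17, a neuronal inhibitor of Gi and Gz signals, had intensities of 351.2, 189.5, 362.8, 394.3 and 397.4 in homozygous pools 1 to 5 and of 70.0, 255.3, 149.7, 114.7 and 133.2 in control pools 1 to 5. Control pool 2 lay above homozygous pool 2, the only overlap. The log2 difference was 1.31 ± 0.35 (SE; limma adjusted p = 0.11), and the second Rgs17 probe set, which did not overlap, differed by 1.48. Rgs19 differed by -0.17 ± 0.19 (SE; limma adjusted p = 0.708), and its intensity was 748.3 in homozygous pool 5, whereas the remaining 9 pools lay between 1339.5 and 1610.1. Without that pool Rgs19 differed by 0.02. Rgs20 differed by 0.42.

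**Figure D2:**
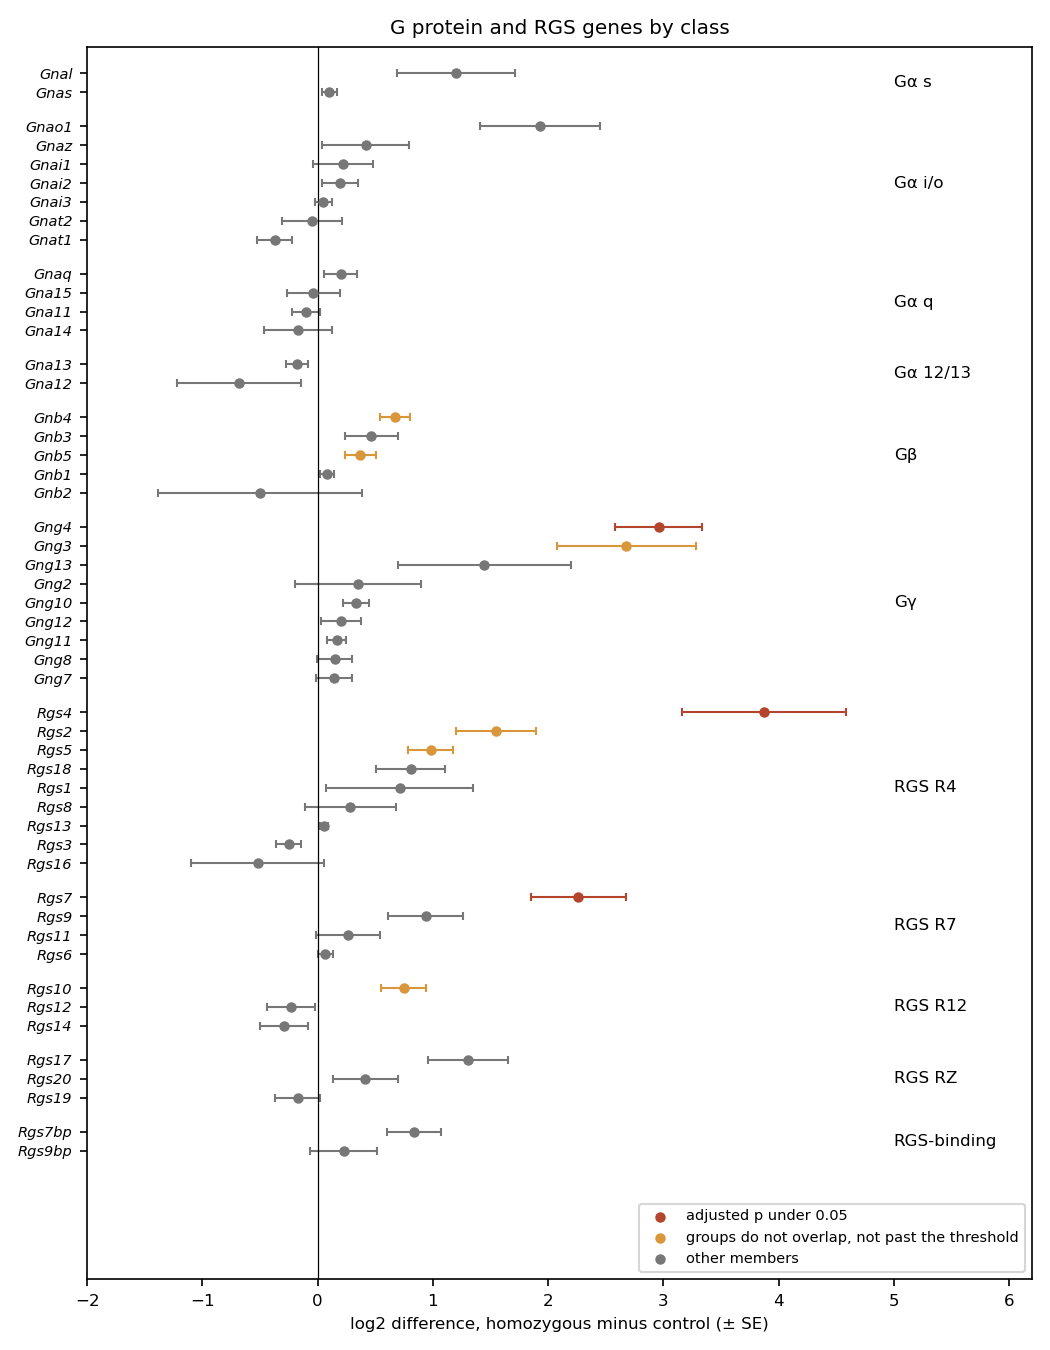
Log2 difference, homozygous minus control, of the 50 genes by class; points are limma estimates and bars their SE over 5 against 5 pools. Red marks the 3 genes past the threshold, orange the 6 further genes whose groups did not overlap, and grey the rest. Differences of 1 or more in size occur in 9 of the 50 genes (18%), against 5.55% of all genes.

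Among Gα genes none passed. Gnao1, the Go subunit of neurons and endocrine cells, had intensities of 1116.7, 513.8, 851.3, 471.9 and 269.5 in homozygous pools 1 to 5. Control pools 1 to 5 gave 72.5, 369.0, 136.5, 217.8 and 97.0, and control pool 2 lay above homozygous pool 5. The log2 difference was 1.93 ± 0.52 (SE; limma adjusted p = 0.112), and 0.24 with the neuronal and chromaffin mean as a covariate. Gnal, the Gs-class subunit first known from olfactory neurons, ran from 40.3 to 209.9 in homozygous and from 23.9 to 81.1 in control pools. Gnal differed by 1.20 ± 0.51 (SE, limma adjusted p = 0.299), and by -0.17 with that covariate. The covariate does not overlap between the genotypes, so it cannot be fully told apart from genotype. The other Gnal probe sets differed by 0.28 and 1.17, and the mean of all 3 by 0.88 (limma adjusted p = 0.102).

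The broadly expressed Gα genes Gnas, Gnai2, Gnaq and Gna13 differed little by comparison. Gnas, which encodes the Gs subunit in an imprinted locus of several transcripts, ran from 12764.4 to 16330.6 in homozygous and from 13112.2 to 13916.9 in control pools, a difference of 0.10 ± 0.07 (SE; limma adjusted p = 0.526) that turned to -0.004 after quantile normalization. A dim Gnas probe set, at the floor on 4 of the 10 arrays, all of them control arrays, differed by 0.91 (adjusted p = 0.078 in limma over all named probe sets). Gnai2, a Gi subunit, differed by 0.19 ± 0.16 (SE), and by -0.04 without the 3 pools of high Xist. Gnaq differed by 0.20 ± 0.14 (SE) at the probe set that represents it and by -0.12 over the mean of its 7 probe sets. Gna13 differed by -0.18 ± 0.10 (SE). Adjusted p was 0.618 for Gnai2, 0.56 for Gnaq and 0.428 for Gna13 in limma. The other Gi and Go class genes, Gnai1, Gnai3, Gnat1, Gnat2 and Gnaz, differed by -0.37 to 0.42, and Gna11, Gna14 and Gna15 by -0.17 to -0.04, none past the threshold. Gnat1 and Gnat2 are the transducins of photoreceptors: Gnat1 was at the floor on all 5 homozygous and 2 control arrays, and of the 3 measured photoreceptor markers Rcvrn was at the floor on all 10. Gna12 differed by -0.68 ± 0.54 (SE, limma adjusted p = 0.605).

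Among Gβ genes, Gnb4 had intensities of 1954.5, 1609.2, 2127.7, 1780.6 and 2653.8 in homozygous pools 1 to 5 and of 1121.0, 1311.0, 1294.0, 1182.6 and 1387.2 in control pools 1 to 5. Homozygous pool 5 was highest, and the groups did not overlap. On the log2 scale the mean was 10.96 ± 0.27 (SD, n = 5) against 10.29 ± 0.12 (SD, n = 5), a difference of 0.67 ± 0.13 (SE; limma adjusted p = 0.0558). Its other probe sets differed by 0.54 and 0.80. Gnb5, the Gβ subunit that pairs with R7-class RGS proteins, ran from 491.0 to 597.4 in homozygous and from 287.4 to 457.6 in control pools, with control pool 1 far below the rest of its group. It differed by 0.37 ± 0.14 (SE; limma adjusted p = 0.221) over all pools and by 0.25 without control pool 1. Its second, dim probe set differed by -0.10, and the mean of both by 0.13. Gnb1, found in most cells, differed by 0.08 ± 0.06 (SE; limma adjusted p = 0.578), and by -0.01 without the 3 pools of high Xist. Gnb2 differed by -0.50 ± 0.89 (SE, limma adjusted p = 0.826) and Gnb3 by 0.47 ± 0.23 (SE, limma adjusted p = 0.378).

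All 9 Gγ genes had a positive difference, also with quantile normalization or a common median; Gng12 was negative over the mean of its probe sets, Gng8 without the pools of high Xist, and Gng2 and Gng8 with the neuronal and chromaffin covariate. Beside Gng4 and Gng3, Gng10 differed by 0.33 ± 0.11 (SE; limma adjusted p = 0.18) and the other 6, Gng2, Gng7, Gng8, Gng11, Gng12 and Gng13, by 0.15 to 1.45, with a lowest adjusted p of 0.383 in limma. Gng11, the endothelial subunit, differed by 0.17. The endothelial list mean was 7.85 to 8.39 in homozygous and 7.68 to 8.79 in control pools, with 1 of its 7 genes higher in homozygous pools, none past the threshold and none at the floor on every array.

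**Figure D3:**
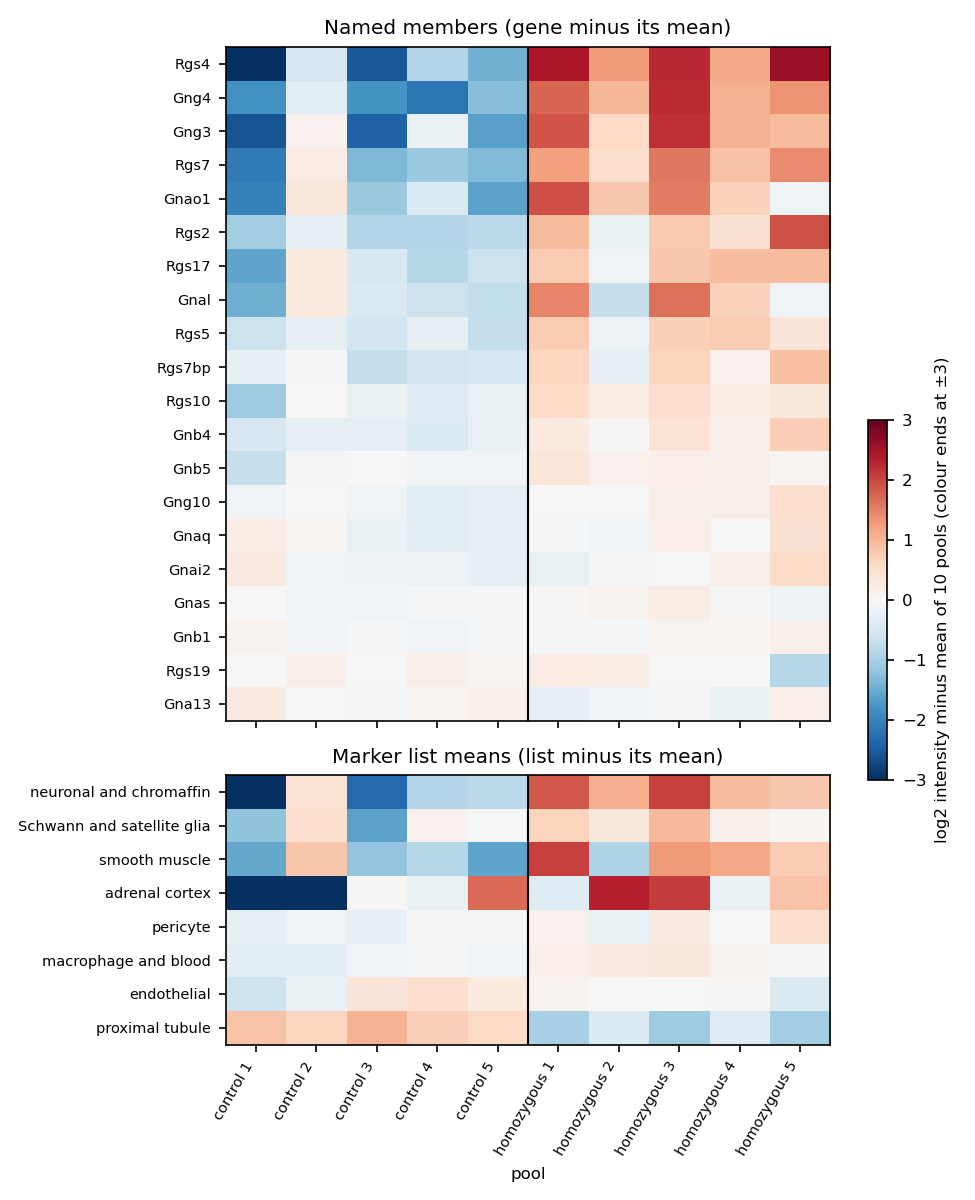
Log2 intensity of the 20 named genes (top) and mean of 8 marker lists (bottom) in each pool, each row minus its mean over the 10 pools, with colour ending at ±3. Rgs4, Gng4, Gng3 and Rgs7 are red in all homozygous pools, the neuronal and chromaffin means span 5.73 (control pool 1) to 10.97 (homozygous pool 3), and the proximal tubule row has the opposite sign.

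The 32 genes with more than 1 probe set gave 69 further probe sets, of which 7 were at the floor on every array. Of the other 62, the difference had the sign of the representing probe set in 43 and the opposite sign in 19. Over all 119 probe sets 17 had every homozygous pool above every control pool and 0 the reverse, against 2.01% of all named probe sets with the first pattern. Tested one by one over all named probe sets, where 0.263% passed, 1 of the 119 did so, that of Gng4 (limma adjusted p = 0.0266). Of these 17, 4 belonged to Rgs2, 3 to Rgs5, 2 to Rgs4 and 2 to Gnb4.

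**Figure D4:**
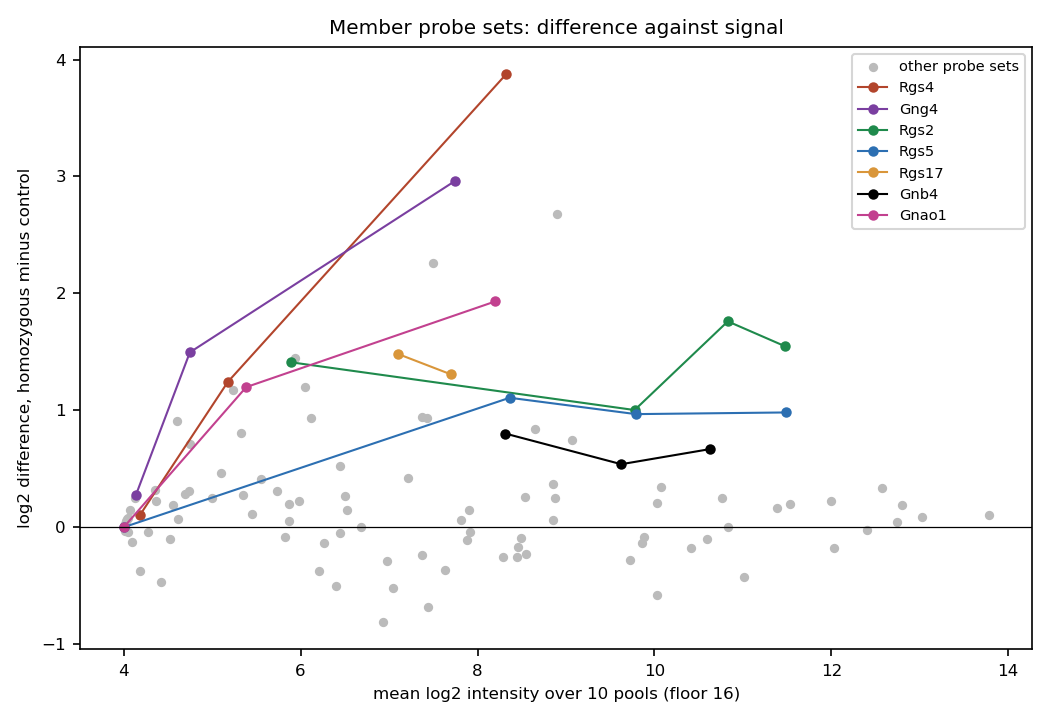
Difference of each of the 119 probe sets against its mean log2 intensity over the 10 pools (values under 16 set to 16); lines join the probe sets of 7 genes. The Rgs2 probe sets lie between 1.00 and 1.76 at every brightness, whereas the dim probe sets of Rgs4 and Gng4 approach 0 near the floor of 4.00 on the log2 scale.

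Position was read for genes chosen by symbol, so family members that lie side by side came in together. Of the 50 genes 10 lie on chromosome 1 (GRCm38.p6), and the share over all genes was not counted. Rgs5 (169655501 to 169695813) and Rgs4 (169741477 to 169747642) are neighbours 45.7 kb apart with 0 protein-coding genes between them, and both separated the genotypes. Rgs2 (143999338 to 144004149) lies 133.2 kb from Rgs13, which is 67.3 kb from Rgs1; Rgs18 follows 503.6 kb further on. In that cluster Rgs2 differed by 1.55, Rgs13 by 0.056, Rgs1 by 0.71 and Rgs18 by 0.81, and Rgs13 was at the floor on 3 homozygous and 5 control arrays. Rgs8 and Rgs16, 42.7 kb apart, differed by 0.28 and -0.52. Rgs7 (175059076 to 175492862) is 5311.4 kb from Rgs4 with 117 protein-coding genes between them. Gng4 lies on chromosome 13 (13784059 to 13827895), Gng3 on chromosome 19 (8836929 to 8839246) and Gnb4 on chromosome 3 (32578587 to 32616673).

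Genes that act before and after the G protein were counted by list, beside 0.967% of all genes past the threshold in either direction; at that share a count of 0 sets none of these lists apart. Of 22 effector genes, among them adenylyl cyclases, phospholipases C and channels, 0 passed, and 13 were positive with a median of 0.16 against 0 over all genes. Adcy1, a neuronal adenylyl cyclase, differed by 0.56 ± 0.13 with no overlap (SE; limma adjusted p = 0.0849), and Kcnj5, a potassium channel opened by Gβγ, by -0.96 ± 0.20 (SE; limma adjusted p = 0.0605). Of 16 measured receptor kinases, arrestins and modulators 0 passed, and 9 were positive with a median of 0.03; Grk3, a kinase that marks active receptors, differed by 0.37 and Arrb2, an arrestin, by 0.22. Over the mean of its probe sets Arrb2 differed by -0.06. Of 35 measured receptors of transmitters and hormones 0 passed, and 26 were positive with a median of 0.17. Ptger3, a prostaglandin E receptor, differed by 1.36 ± 0.37 (SE; limma adjusted p = 0.112) and Pth1r, the parathyroid hormone receptor, by -0.85 ± 0.28 (SE; limma adjusted p = 0.173).

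The pools differed in other ways than genotype. Xist was high in homozygous pools 3, 4 and 5 alone. The mean of 3 measured Y-linked genes was 4.00 to 4.005 in these pools, against 9.88 and 10.02 in homozygous pools 1 and 2. It was 9.75 to 10.31 in control pools. No control pool thus had the female pattern, so sex and genotype cannot be fully told apart. The actin probe sets, read as the 3′ end over the middle of the transcript, gave ratios of 97.7 (homozygous pool 5) and 94.8 (control pool 1), while 9.87 to 33.1 was the range elsewhere. Without the 3 pools of high Xist 0 of the 50 genes passed in limma, and the differences were 3.79 for Rgs4, 2.85 for Gng4, 2.02 for Rgs7, 1.14 for Rgs2 and 0.78 for Rgs5. Without the 2 arrays of high actin ratio 0 passed as well, with 3.12 for Rgs4, 2.91 for Gng4, 1.95 for Rgs7, 1.20 for Rgs2 and 0.97 for Rgs5. Marker levels of a kidney cell type also differed with genotype itself. Proximal tubule markers were lower in homozygous pools, with list means of 7.93 to 8.62 against 9.59 to 10.05 in control pools. Of these markers 6 of 6 passed as lower, against 0.429% of all genes, and none was at the floor on every array. The part of this difference in the results for the 50 genes was not tested. The plot of the differences under the alternatives shows how far each value moved.

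**Figure D5:**
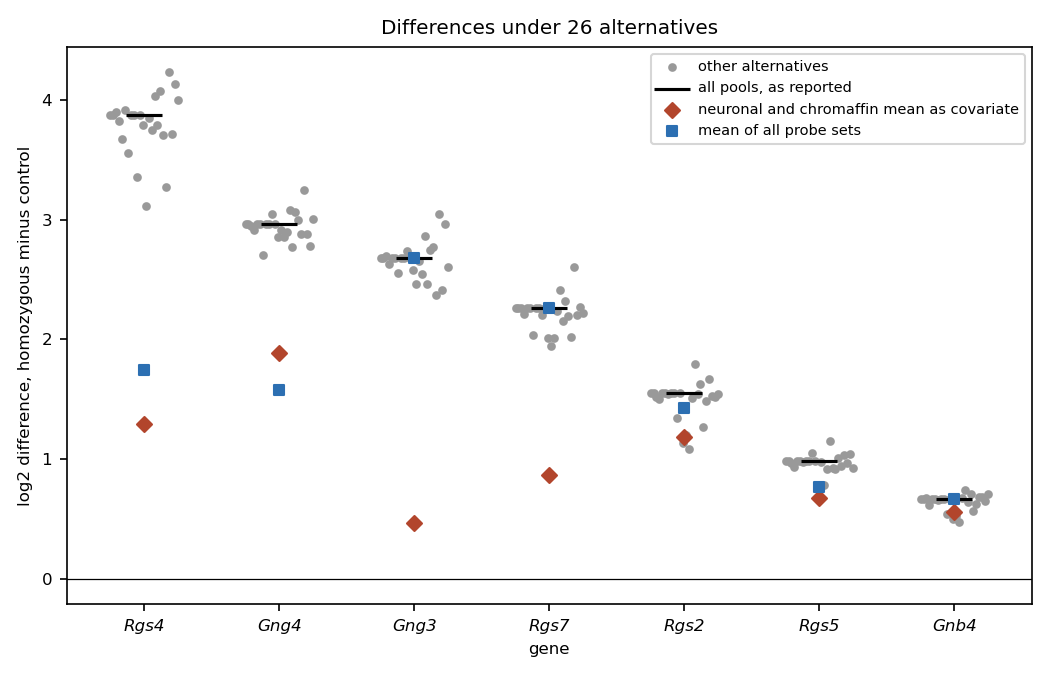
Log2 difference of 7 genes under the 26 alternatives; the black bar is the value over all pools, the red diamond the fit with the neuronal and chromaffin list mean as a covariate, the blue square the mean of all probe sets, and grey points the rest. No value crosses 0, which was fixed in advance where only pools were left out, as the groups of these genes do not overlap. Gng3 moves from 2.68 to 0.46 and Gnb4 from 0.67 to 0.56 with the covariate, which does not overlap between the genotypes.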

How the data were processed

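Per the file headers and labels, the deposited values are linear intensities, 1 per probe set and array, as the authors made them. With 2% of values trimmed at each end, every array averaged 500, so a change of total RNA is not visible. Which summarization produced them is not given in the sources used here. Median intensity ran from 74.7 to 98.6. At or under the floor were 19.9% to 21.1% of probe sets on homozygous and 22.2% to 23.0% on control arrays. Genes near the floor may share this difference, which was not tested. No pair of arrays was identical.

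Gene symbols came from GEO's platform table, and 64 Affymetrix controls were left out. Intensities under 16 were set to 16 and taken to log2, and a gene was read from its brightest probe set, judged by the mean over all arrays. Genotypes were compared, two-sided, with limma (version 3.58.1, R 4.3.3; linear model, moderated with an intensity trend) over 18193 genes with Benjamini-Hochberg adjustment. The number of arrays limits the precision. In a simulation of this comparison over 18193 genes, 46% of genes changed by 1 and 71% of those changed by 2 on the log2 scale were found, and 13 of 130 calls were false.

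The genes named are those past the threshold, those whose groups did not overlap, and in each class the gene with the highest mean and the gene with the smallest p. Others are given by counts and ranges, and a few singled out beyond this rule were chosen after their values were seen. From each pathway list the 2 genes with the smallest p are named. The members and lists were chosen with earlier results of these data known. Replicate numbers come from the titles and pair no samples: deviations of same-numbered pools correlated between -0.55 and -0.17. Alternatives concerned the probe set, dim genes, normalization, the floor, the variance model, array weights, a replicate block, covariates and leaving out pools.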

Additional observations from a re-analysis of the deposited data

Results flagged for a closer look

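In 52 groups of 5 pools, from 26 named genes, 5 had 1 pool far from the other 4 by Dixon's criterion; chance alone gives about 1 in 20. Gnai2 was highest in control pool 1, at 13.06 on the log2 scale against 12.51 to 12.65 in the other control pools. Gnb5 was lowest in that same pool, at 8.17 against 8.75 to 8.84. Rgs19 was lowest in homozygous pool 5, at 9.55 against 10.39 to 10.65. Both pools are those of high actin ratio, and the part of RNA quality in these values was not tested. Rgs17 was lowest in homozygous pool 2, at 7.57 against 8.46 to 8.63, and Grk3 was highest in control pool 2, at 10.57 against 10.02 to 10.13.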

How the results depend on the processing

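Over the 26 alternatives Rgs4, Gng4, Rgs7, Gng3, Rgs2, Rgs5 and Gnb4 kept their sign. Because their groups did not overlap, leaving out pools could not turn the sign, and a changed variance model leaves the difference as it is. The count of 3 higher genes became 0 without the 3 pools of high Xist, without the 2 arrays of high actin ratio, with the Xist level or the neuronal and chromaffin mean as a covariate, and with the replicate block; over all genes these fits called 28, 23, 13, 0 and 1, against 176. The numbers pair no samples, and 0 of 5 homozygous pools correlated best with the control pool of their own number. It was 1 with every probe set on its own (92 overall), 7 with the dimmest 40% of genes left out (283) or with log2(intensity + 16) (302), 5 with a robust trend, 11 with array weights (951, and 1 of the 50 lower, Rgs3) and 2 with a floor of 32 (94). The mean of all probe sets gave 109 genes over all. Leaving out each pool gave 0 to 5 of the 50 and 3 to 414 over all genes; 0 of the 50 were lower in each of these fits. Signs turned for Gnaq (-0.12 over the mean of probe sets, -0.019 with Xist as a covariate), Arrb2 (-0.061 over the mean of probe sets), Gnas (-0.0040 with quantile normalization), Gnai2 (-0.042 without the pools of high Xist, -0.084 with Xist as a covariate), Gnb1 (-0.0076 and -0.021 in the same fits), Rgs19 (0.14 and 0.19 in these, and from -0.26 to 0.020 as each pool was left out, the latter without homozygous pool 5) and Gnal (-0.17 with the neuronal covariate). The cause was not tested.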

Other observations

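On the 2 arrays of high actin ratio, homozygous pool 5 and control pool 1, 7 of the 50 genes had their lowest intensities of all and 8 their highest; over all genes these shares were 15.2% and 12%. Gnb2, a Gβ subunit gene, was at 2 and 11.7 on these arrays and between 45.2 and 221.7 on the other 8. Gng2, a Gγ subunit gene of brain and blood cells, was at 424.8 and 339.8 against 948.7 to 2471.5, and Gna12, a Gα subunit gene, at 64.8 and 65.9 against 118.6 to 378.5. Gnai1, a Gi subunit gene, was at 8007.8 and 5213.8 against 2981.7 to 4314.3. These genes were chosen after their values were seen.

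High values in few pools were also seen. Gng13, the Gγ subunit gene of taste and olfactory cells, was at 328.0 and 427.0 in homozygous pools 4 and 5 and between 27.2 and 54.6 in the other 8 pools. Rgs1, a regulator gene of lymphocytes and other blood cells, was at 203.8 in homozygous pool 5 and between 6.7 and 28.5 elsewhere.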
